A study of Mus musculus with 2 samples.

Results

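ATP-binding cassette (ABC) transporter genes were compared between uncultured mouse lung and cultured mouse embryonic fibroblasts (MEF). The set held every gene whose single annotated symbol is Abca to Abcg followed by a number, with or without 1 further letter (as in Abcb1a), except Abca3 and Abcg1. This gave 46 of the 19532 named genes on the array, measured by 88 probes. Each of 2 Agilent arrays carried RNA of a lung sample, taken without culture, untreated and labelled with Cy3, against RNA of MEF labelled with Cy5. The MEF, a mixed fibroblast culture derived from embryos, grew in DMEM with 10% heat-inactivated fetal bovine serum and 0.1 mM non-essential amino acids. The labels give no strain, age, sex or number of animals for either, and do not say whether lung samples 1 and 2 came from separate animals. The p-values therefore measure only the spread between these 2 samples, which may be technical, and precision is limited by having so few arrays.

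ABC proteins share a nucleotide-binding domain that splits ATP, and most use that energy to move lipids, drugs, conjugates, peptides or metabolites across a membrane. Full transporters carry both membrane and nucleotide-binding units in 1 chain, whereas the shorter ones work as dimers. A few family members have no membrane spans and act in translation, and the sulfonylurea receptors regulate potassium channels. In lung the family is known for lipid handling by alveolar cells and macrophages, for the chloride channel of airway epithelium, and for efflux of drugs and inflammatory lipids.

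All values below are log2 ratios of lung over MEF unless another quantity is named. The deposited columns state neither base nor direction. Values reach 10.1 in size, so base 2 was assumed, and read as natural logarithms the folds would be larger. A direction of lung over MEF is likely: the design text describes lung relative to MEF, and all values of the 11 measured alveolar and club cell genes used for this purpose were above 0. Were it the other way, every higher and lower here would be exchanged. Among other markers, all 8 endothelial genes (2.81 to 7.95), all 6 ciliated cell genes (3.46 to 6.81) and all 6 lymphoid genes (0.59 to 7.25) were higher in lung, and all 6 genes of cultured fibroblasts (-7.62 to -5.52) were lower. Other lists of lung cells were mixed: 3 of 7 macrophage genes (C1qa at -2.95, C1qb at -2.70, and Adgre1 with -2.02 and -1.98 on the arrays), 5 of 8 smooth muscle and pericyte genes and 1 of 6 resident fibroblast genes were lower in lung. Because lung is a mixture of cell types, fewer cells of a type and less RNA per cell cannot be told apart. Ratios that involve a weak channel could not be picked out, because channel intensities were not used here. As a yardstick served 1046 olfactory and vomeronasal receptor genes, best known from sensory neurons. The central 95% of them lay between -1.39 and 1.22 for lung replicate 1, and between -1.45 and 1.23 for lung replicate 2. This interval is called the receptor range below, and 58.5% of the receptor genes passed the test described next.

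Among the 46 ABC genes, 25 were higher and 13 lower in lung, and 8 did not pass the test (limma's moderated test against 0, Benjamini-Hochberg adjusted p below 0.05 over all genes). That is 54.3% higher and 28.3% lower, against 32.6% and 43.6% of all genes. Passing is common in this table, where 76.2% of genes passed, so size was read beside it. On both arrays 11 ABC genes were at least 2-fold higher (23.9%, against 17.1% of all genes) and 7 at least 2-fold lower (15.2%, against 15.4%). All 18 also passed the test, and both criteria together held for 17.1% of all genes as higher and 15.3% as lower. Above the receptor range on both arrays lay 9 (19.6%, against 14.6% of all genes) and below it 3 (6.52%, against 8.78%). The median of the ABC genes was 0.28, that of all genes was -0.21, and that of the receptor genes was -0.42. Median-centring shifts the arrays by 0.22 and 0.14, and centring on the receptor genes by 0.41 and 0.43. With these centrings the split of the ABC genes became 26 higher to 12 lower and 29 higher to 10 lower, while the higher share of all calls moved to 51.3% and 63.6%, against 42.8% uncentred.

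**Figure D1:**
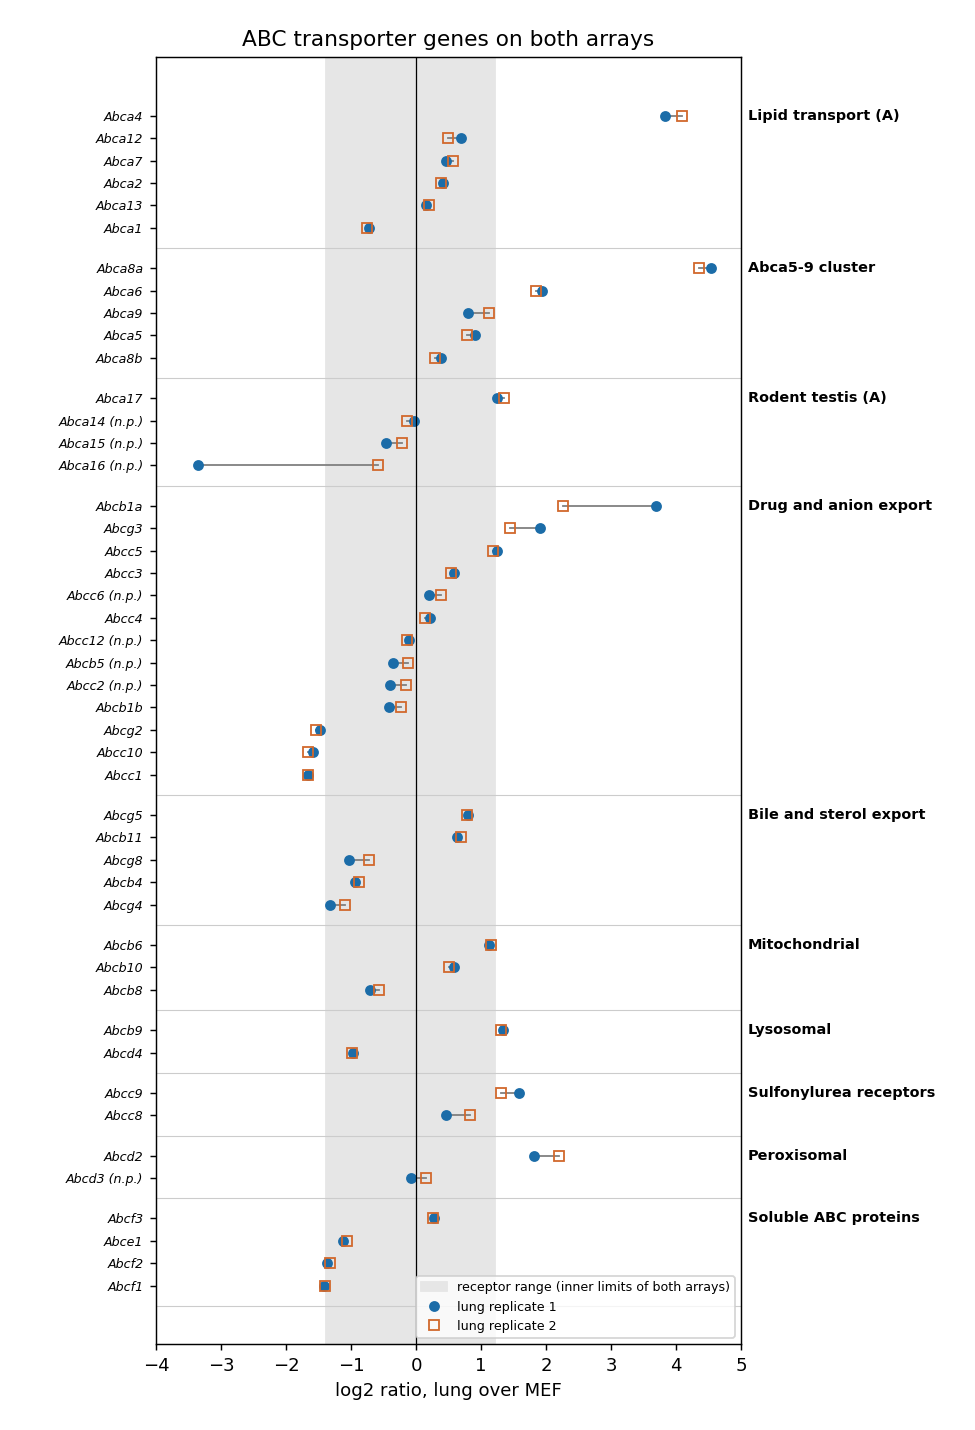
Each row is 1 ABC gene, grouped by role, with its log2 ratio of lung over MEF on lung replicate 1 (filled circle) and lung replicate 2 (open square). The grey band is the receptor range (inner limits of both arrays) and n.p. marks genes that did not pass the test. Abca8a, Abca4 and Abcb1a stand furthest to the right, and Abca16 and Abcb1a have the widest gaps between the arrays.

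The arrays agreed in sign for 45 of the 46 genes, the exception being Abcd3. Across the 46 genes, which share both hybridisations and are no replicates, Pearson's r between the arrays was 0.95 and Spearman's rho was 0.98. The median gap between the arrays was 0.10 for ABC genes and 0.08 for all genes. Abca16 and Abcb1a were the 2 genes whose arrays differed by more than 1, and both rest on a single probe.

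The A subfamily consists of full transporters that mostly move lipids. Of its 6 genes outside the chromosome 11 group and the rodent testis group, both described below, 5 were higher in lung, with a median of 0.45. Abca4, which flips retinoid-lipid adducts across photoreceptor membranes, had 3.83 and 4.09 on its single probe. Both lung samples were far above MEF, 15.6-fold on average (3.96 ± 0.18, SD, n = 2, adjusted p = 0.00191 by limma). Abca12, the transporter of keratinocyte lamellar granules, was higher at 0.59, but its 3 probes ranged from -0.75 to 1.83. Abca7 (0.51) and the endolysosomal transporter Abca2 (0.40) were also higher, each by less than 2-fold. Abca7 had 1 probe at 1.57 and another at -0.55. Abca13 was higher at 0.18 with 1 of its 3 probes above 0. Abca1, which loads cholesterol and phospholipid onto apolipoprotein A-I, was the exception at -0.72 and -0.75. Its level in lung was 1.66-fold lower (adjusted p = 0.00348 by limma, 1 probe). Macrophage genes, from cells in which Abca1 is prominent, ranged from -2.95 to 7.72, with 4 of 7 higher and 3 lower, and their part in it was not tested. Of these 6 genes, Abca4 alone left the receptor range.

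A group of 5 genes of the A subfamily lie side by side on chromosome 11 in the RefSeq order Abca8b, Abca8a, Abca9, Abca6 and Abca5, and all 5 were higher in lung. Their means in that order were 0.34, 4.44, 0.96, 1.89 and 0.85. Abca8a had the highest ratio of all 46 genes, with 4.53 and 4.35 on the 2 arrays, or 21.8-fold (adjusted p = 0.00165 by limma, 1 probe). Human ABCA8 is known to take part in cholesterol efflux. Abca6 had 1.94 and 1.84, 3.71-fold higher, with its 2 probes at 0.88 and 2.91. Abca9 stood at 0.81 and 1.12 and the endolysosomal transporter Abca5 at 0.91 and 0.79, so neither reached 2-fold on both arrays, and each had 1 of 4 probes below 0. Abca8b, next to Abca8a in the genome, had 0.39 and 0.29, with 1 probe above 0 (1.00) and 1 below it (-0.32). Of the resident lung fibroblast genes 5 of 6 were higher, ranging from -0.65 to 5.80. All 8 endothelial, all 6 ciliated cell and all 6 lymphoid genes were higher too. The part of any of these cells in the values of this group was not tested.

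The promoter windows of the pair that differed most within this group, Abca8a and Abca8b, are shown to set a gene with a high ratio beside its neighbour with a low one. Each runs 300 bases, from 250 before to 50 after the start, 5′ to 3′ on the gene's own strand (RefSeq, GRCm38.p6). Capitals mark 3 core promoter motifs on either strand. The TATA box was searched as TATAAA. The box that binds the factor NF-Y was searched by the letters of its name, CCAAT. For the GC box, known from Sp1 binding, the letters were GGGCGG. The Abca8a window is chr11:110095888-110096187 and that of Abca8b is chr11:109995796-109996095, both on the minus strand.
Abca8a: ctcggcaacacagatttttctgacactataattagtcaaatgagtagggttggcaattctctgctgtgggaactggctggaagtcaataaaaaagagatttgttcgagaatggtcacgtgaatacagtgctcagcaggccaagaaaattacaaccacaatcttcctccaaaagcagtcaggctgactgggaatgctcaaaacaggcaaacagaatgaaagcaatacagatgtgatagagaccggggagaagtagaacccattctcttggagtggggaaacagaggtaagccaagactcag
Abca8b: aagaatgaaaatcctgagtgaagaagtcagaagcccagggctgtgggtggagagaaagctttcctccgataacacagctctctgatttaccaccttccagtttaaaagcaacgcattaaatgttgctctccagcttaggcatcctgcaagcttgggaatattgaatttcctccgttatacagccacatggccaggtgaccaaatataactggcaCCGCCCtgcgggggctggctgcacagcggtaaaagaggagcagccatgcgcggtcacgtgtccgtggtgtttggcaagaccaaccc
The Abca8a window held none of these motifs and 4 CpG dinucleotides. The Abca8b window held 1 GC box and 10 CpG dinucleotides. Such a match is a description of the letters in the window and not a binding site.

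Genes of the A subfamily known from rodent testis did not move together. Abca17 was higher at 1.25 and 1.35, 2.46-fold, on 1 probe, and it lies next to Abca3 on chromosome 17 in the RefSeq order. Abca14 (-0.08) and Abca15 (-0.34) did not pass the test, with adjusted p = 0.239 and 0.0644 by limma. Centring on the receptor genes turned Abca14 to 0.34, which passed as higher (adjusted p = 0.0176), and Abca15 to 0.08, which did not. Abca16 had -3.36 on lung replicate 1 and -0.59 on lung replicate 2. Its 95% interval from limma ran from -5.63 to 1.68, so neither a higher nor a lower level was resolved (adjusted p = 0.173).

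Exporters of drugs and organic anions divided, with 5 of 13 genes higher, 4 lower and 4 not passing. P-glycoprotein, the broad drug efflux pump of capillary endothelium and gut, is encoded in mice by Abcb1a and Abcb1b, neighbours on chromosome 5 whose sequences are closely related. Abcb1a had 3.70 and 2.26, both well above MEF, for a mean of 7.89-fold (2.98 ± 1.02, SD, n = 2, adjusted p = 0.0281 by limma, 1 probe). The size depends on the array, 13.0-fold on lung replicate 1 and 4.79-fold on lung replicate 2. Abcb1b had -0.42 and -0.24 and was lower at -0.33 (adjusted p = 0.0444 by limma), but centring on the receptor genes turned it to 0.09 with adjusted p = 0.363. All 8 endothelial marker genes were higher in lung, as was Abcb1a, and their part in that result was not tested. Whether probes of this pair separate the transcripts was not examined, since no probe sequences were used here.

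The promoter windows of this pair are printed because its members lay on opposite sides of 0. They are chr5:8566841-8567140 and chr5:8797897-8798196, both on the plus strand, with the same motifs in capitals.
Abcb1a: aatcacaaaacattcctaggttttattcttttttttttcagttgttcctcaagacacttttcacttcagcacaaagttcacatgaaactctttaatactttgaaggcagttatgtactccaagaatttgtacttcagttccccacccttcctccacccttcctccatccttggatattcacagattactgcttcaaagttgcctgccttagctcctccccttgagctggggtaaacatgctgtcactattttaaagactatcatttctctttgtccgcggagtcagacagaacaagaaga
Abcb1b: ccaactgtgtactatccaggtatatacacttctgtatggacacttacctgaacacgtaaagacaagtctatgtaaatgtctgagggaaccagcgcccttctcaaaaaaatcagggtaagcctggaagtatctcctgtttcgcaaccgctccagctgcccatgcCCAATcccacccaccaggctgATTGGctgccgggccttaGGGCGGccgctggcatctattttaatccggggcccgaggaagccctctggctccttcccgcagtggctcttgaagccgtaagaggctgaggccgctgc
The Abcb1a window held 2 CpG dinucleotides, a GC content of 40.3% and none of the motifs. The Abcb1b window held 12 CpG dinucleotides, a GC content of 55.0%, 2 CCAAT boxes, 1 on each strand, and 1 GC box. The RefSeq table had 44 windows for 37 of the 46 ABC genes. Of these, 7 (15.9%) held a TATA box, 16 (36.4%) a CCAAT box and 20 (45.5%) a GC box, against 13.6%, 37.4% and 35.7% of all 32851 windows. The median number of CpG dinucleotides was 15.5 in windows of ABC genes and 7 in all windows.

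A further 2 exporters were at least 2-fold higher in lung. Abcg3, a rodent relative of Abcg2, had 1.91 and 1.45 (3.21-fold, 1 probe). Abcc5, which exports cyclic nucleotides and other anions, had 1.25 and 1.18 (2.32-fold), with all 3 probes above 0, between 0.75 and 2.12. Only 1 of these probes was itself 2-fold higher on both arrays. Abcc3, a basolateral exporter of conjugates, was higher at 0.56, but 1 probe stood at 1.83 and the other at -0.71. Abcc4, which exports cyclic AMP, urate and prostaglandins, was higher by only 0.18, with probes on both sides of 0.

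Among exporters lower in lung, Abcc1 was the most distant, at -1.65 on both arrays. It exports leukotriene C4 and glutathione conjugates, and its level was 3.15-fold lower (adjusted p = 0.00175 by limma), with all 3 probes between -1.84 and -1.32. Abcc10, a relative of Abcc1 with taxanes among its substrates, had -1.58 and -1.67 and was 3.09-fold lower on 1 probe. Abcg2, the efflux pump known from stem cell side populations and many epithelia, had -1.48 and -1.53. That is 2.84-fold lower, with probes at -2.07 and -0.94. These 3 were the ABC genes below the receptor range on both arrays. Abcc2, the canalicular conjugate pump (-0.28), Abcb5 (-0.24), Abcc6, known for its role in tissue mineralisation (0.29), and Abcc12 (-0.12) did not pass. With arrays centred on the receptor genes, Abcc6 (0.71, adjusted p = 0.0114 by limma) and Abcc12 (0.30, adjusted p = 0.0144) passed as higher, so that Abcc12 changed sign. Abcb5 and Abcc2 turned to 0.17 and 0.14 without passing.

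Bile and sterol exporters are liver and gut proteins in the main, and none of the 5 left the receptor range, although all passed the test. Abcb11, the bile salt pump, was higher at 0.66 on 1 probe. Abcb4, which delivers phosphatidylcholine to bile, was lower at -0.91 with probes at -1.57 and -0.25. Abcg4, a sterol exporter of brain, had -1.32 and -1.10 and was 2.31-fold lower on 1 probe. Abcg5 and Abcg8 form 1 heterodimer that exports plant sterols and cholesterol, and are transcribed away from each other on chromosome 17. Abcg5 had 0.81 and 0.78 (1 probe, adjusted p = 0.00309 by limma), whereas Abcg8 had -1.03 and -0.72 (2 probes, adjusted p = 0.0173). After centring on the receptor genes Abcg8 was at -0.46 and no longer passed (adjusted p = 0.0576).

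The Abcg5 window is shown because 1 of the 2 Abcg8 windows covers 209 of its bases on the other strand. It is chr17:84682962-84683261, minus strand.
Abcg5: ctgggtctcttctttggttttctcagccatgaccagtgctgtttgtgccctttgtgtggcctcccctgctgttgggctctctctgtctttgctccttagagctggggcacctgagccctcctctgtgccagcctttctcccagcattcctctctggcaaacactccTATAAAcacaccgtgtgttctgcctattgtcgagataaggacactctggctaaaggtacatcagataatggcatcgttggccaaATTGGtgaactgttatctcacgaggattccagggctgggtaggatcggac
It held 1 TATA box, 1 CCAAT box and 5 CpG dinucleotides.

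Of the dimer-forming transporters placed in mitochondria, 2 of the 3 measured were higher in lung. Abcb6, linked to porphyrin transport, had 1.13 and 1.15, 2.20-fold higher, on 1 probe. Abcb10, an inner membrane protein required for heme synthesis in red cell precursors, was higher at 0.55, with both probes close together (0.54 and 0.56). Red cell genes were higher in 3 of 4 (0.60 to 7.03), and their part in these values was not tested. Abcb8 was lower at -0.64, and its call was lost when arrays were centred on the receptor genes (-0.22, adjusted p = 0.0719 by limma). Lysosomal transporters split. Abcb9, which carries peptides into lysosomes, was 2.50-fold higher at 1.34 and 1.31. Abcd4, needed for vitamin B12 release from lysosomes, was 1.97-fold lower at -0.97 and -0.98. Each of the pair rests on 1 probe.

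Both sulfonylurea receptor genes were higher. These proteins are not pumps but regulatory subunits of ATP-sensitive potassium channels. Abcc9 (SUR2), which pairs in vascular smooth muscle with the pore subunit Kcnj8, had 1.59 and 1.31 (2.73-fold, adjusted p = 0.00636 by limma). All 3 probes lay between 1.13 and 2.08, and 1 of them was itself 2-fold higher on both arrays. Kcnj8 was higher too, at 3.48 and 2.87, or 9.03-fold. Of 8 smooth muscle and pericyte genes, a list that holds Kcnj8, 3 were higher and 5 lower, from -2.89 to 4.50, and their part in the Abcc9 value was not tested. Abcc8 (SUR1) was higher at 0.47 and 0.83, within the receptor range. Of its 2 probes 1 had 1.29 and 1.04 on the arrays, and the other changed sign, with -0.36 and 0.61. Kcnj11, the usual partner of SUR1, was at -0.08 and did not pass (adjusted p = 0.301 by limma).

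Peroxisomal ABC transporters also work as dimers and import fatty acids for chain shortening. Abcd2, with very long-chain and polyunsaturated substrates, had 1.81 and 2.21 and was 4.03-fold higher (adjusted p = 0.00623 by limma). Its probes stood at 0.87 and 3.16. Abcd3, an importer of branched-chain acids and bile acid precursors, had -0.08 and 0.15. Of its 4 probes 1 was at 1.87 and the other 3 lay below 0, so the mean of 0.03 hides disagreement. With receptor centring the mean was 0.45 and passed as higher (adjusted p = 0.0382 by limma).

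Of the 4 ABC proteins without membrane spans, 3 were lower in lung and 1 was higher. Abce1, which splits ribosomes after termination, had -1.12 and -1.06. Abcf1, which binds initiation factor eIF2, had -1.42 and -1.40, and Abcf2 had -1.37 and -1.33. These 3 were 2.13-, 2.66- and 2.55-fold lower, with adjusted p between 0.00188 and 0.00255 by limma, and every one of their 6 probes was below 0. The Abcf1 probes were far apart, at -2.47 and -0.35. Abcf3 was higher at 0.27, with 1 probe at 1.02 and the other at -0.47. Once centred on the receptor genes, Abce1, Abcf1 and Abcf2 remained lower at -0.68, -0.99 and -0.93, and all 3 still passed.

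Probes of the same ABC gene often disagreed. A probe was counted as above or below 0 only where both arrays had that sign. Of the 29 genes with more than 1 probe, 11 had probes on both sides of 0 by this count (37.9%, against 38.4% of all genes with several probes), and 9 of these 11 passed as gene means. The probes of 16 genes lay more than 1 apart and those of 9 more than 2 apart. Of the 18 genes that were 2-fold apart on both arrays, 9 rest on more than 1 probe, and all probes of these 9 lay on 1 side of 0, which their choice by a large mean favours.

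**Figure D2:**
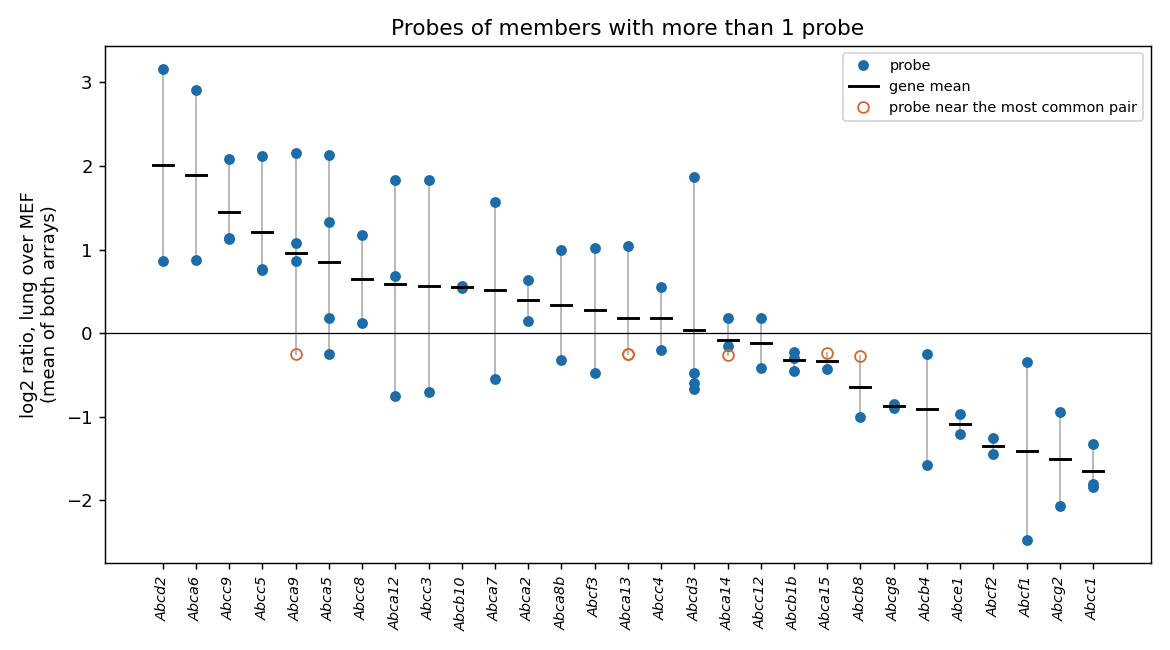
Each column is 1 of the 29 ABC genes with more than 1 probe, points are probes (log2 ratio of lung over MEF, mean of both arrays) and the bar is the gene mean. Open circles are probes near the most common pair of values. Abcd3, Abcc3 and Abca12 are among those that span more than 2 across 0, whereas the probes of Abcc1, Abcf2 and Abcc9 stay on 1 side.

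A feature of the whole table touches some weak ABC values. The most common pair of probe values was -0.38 on lung replicate 1 and -0.14 on lung replicate 2, off the diagonal on which most probes lie. Within 0.1 of it on both arrays were 2002 of the 32664 named probes (6.13%), 154 of the 1097 receptor probes and 0 of the 25 probes of the alveolar, club cell and cultured fibroblast genes. The same square with the arrays exchanged held 216 probes. Among the 88 ABC probes 8 lay there (9.09%), in 7 genes. These were the only probes of Abcb5 and Abcc2, 2 of 3 for Abca13, and 1 each for Abca9, Abca14, Abca15 and Abcb8. Whether ratios at this pair are measured levels or stand in for a weak channel could not be checked without channel intensities, so the values of Abcb5 and Abcc2 may not be measurements. Without these probes Abca13 stood at 1.04 against 0.18 with them. Abca9 stood at 1.37 against 0.96, and was then 2-fold higher on both arrays (1.20 and 1.54). That is a mean of probes that disagreed between arrays, 1 with 0.10 and 2.06 and another with 1.32 and 0.41. Only 1 Abca9 probe was itself 2-fold higher on both. Without the probes near the pair Abcb8 had -1.02 and -0.99, against -0.71 and -0.57. Abca14 turned to 0.01 and Abca15 passed as lower (-0.43, adjusted p = 0.0479 by limma).

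**Figure D3:**
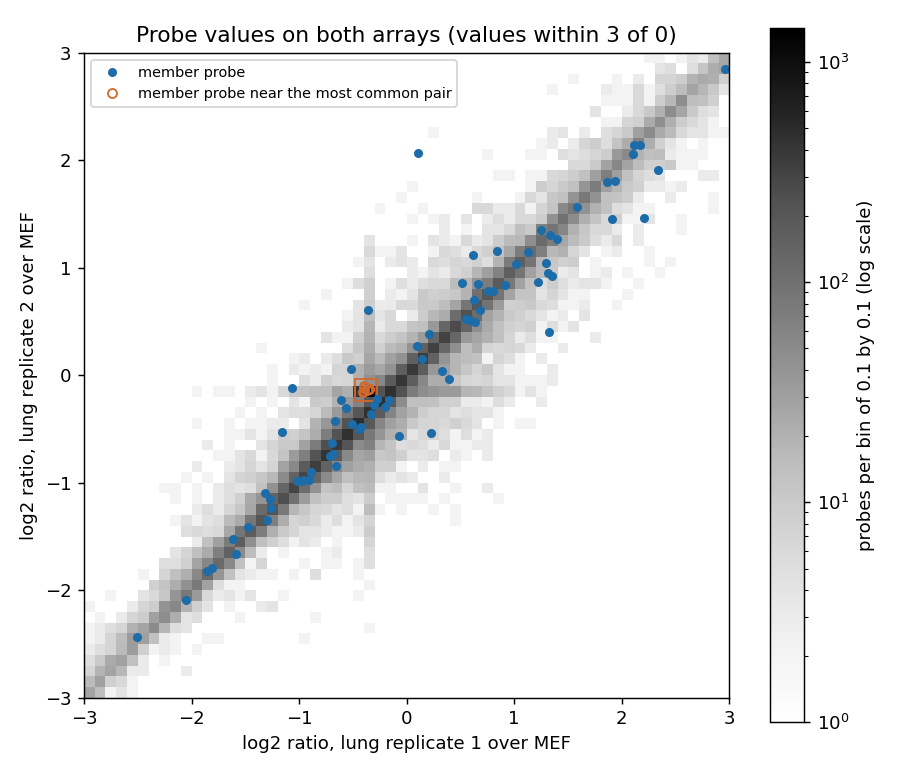
Shading counts named probes with values within 3 of 0 by their log2 ratio of lung over MEF on lung replicate 1 (x axis) and lung replicate 2 (y axis), on a log colour scale, and points are probes of ABC genes. The orange square marks the most common pair, with a vertical and a horizontal streak of probes through it, and 8 ABC probes lie inside.

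Genes that act with ABC transporters were taken from 8 short lists, chosen with earlier results of these data known. Their counts are to be read beside the shares of all genes, 32.6% higher and 43.6% lower. The family genes with other symbols were all higher in lung. Cftr, the chloride channel of airway epithelium, had 2.60 and 2.73 (6.34-fold), but its 2 probes stood at 0.74 and 4.59. The peptide transporter genes of antigen presentation, Tap1 and Tap2, were at 0.33 and 0.60. Of 12 measured genes of cholesterol efflux and its sensing, 5 were higher and 4 lower (median 0.12). Nr1h3, the sterol-sensing receptor LXR alpha that induces Abca1, was 10.3-fold higher (3.37), whereas Abca1 itself was lower. Phospholipid transfer protein Pltp (1.64) and the lysosomal sterol carrier Npc2 (1.53) were higher, and Mylip, a further target of that receptor, was lower at -1.14.

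In a list of 8 genes built around xenobiotic sensors, not all of them sensors themselves, 5 were higher and 2 lower (median 0.64). The nuclear receptors Nr1i3 and Ppara were at 3.14 and 2.47 and the aryl hydrocarbon receptor Ahr at 1.19. Hif1a, an oxygen-regulated factor on the same list, was lower at -2.62. Of 8 genes of leukotriene C4 and glutathione metabolism, which yields substrates of Abcc1, 7 were higher (median 1.00), while Abcc1 was lower. Alox5 (0.51), Alox5ap (0.69) and Ltc4s (0.58), of leukotriene C4 synthesis, were higher by less than 2-fold, within the receptor range. Gclc, the catalytic subunit of the rate-limiting glutathione enzyme, was 12.2-fold higher (3.61) and its modifier Gclm was at 1.30. Mgst2, which can conjugate leukotriene A4, was at 2.47 and the leukotriene-cleaving enzyme Ggt5 at 2.22. Gss, which completes glutathione, was the remaining gene, at -0.04, and did not pass.

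Of 9 peroxisome genes 4 were higher and 4 lower (median 0.22). Catalase (Cat, 2.43) and the beta-oxidation enzyme Ehhadh (1.25) were higher, and Pex19, which delivers membrane proteins such as the Abcd family to peroxisomes, was lower at -1.47. Iron-sulfur and heme genes gave 6 higher and 4 lower of 10 (median 0.30), with the heme synthesis enzyme Alas1 at 3.46 and the mitochondrial chaperone Hspa9 at -2.71. Among 7 partners of the soluble ABC proteins 4 were lower and the other 3 did not pass (median -0.81), and Eif2s2, the beta subunit of eIF2, was the furthest at -1.63.

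**Figure D4:**
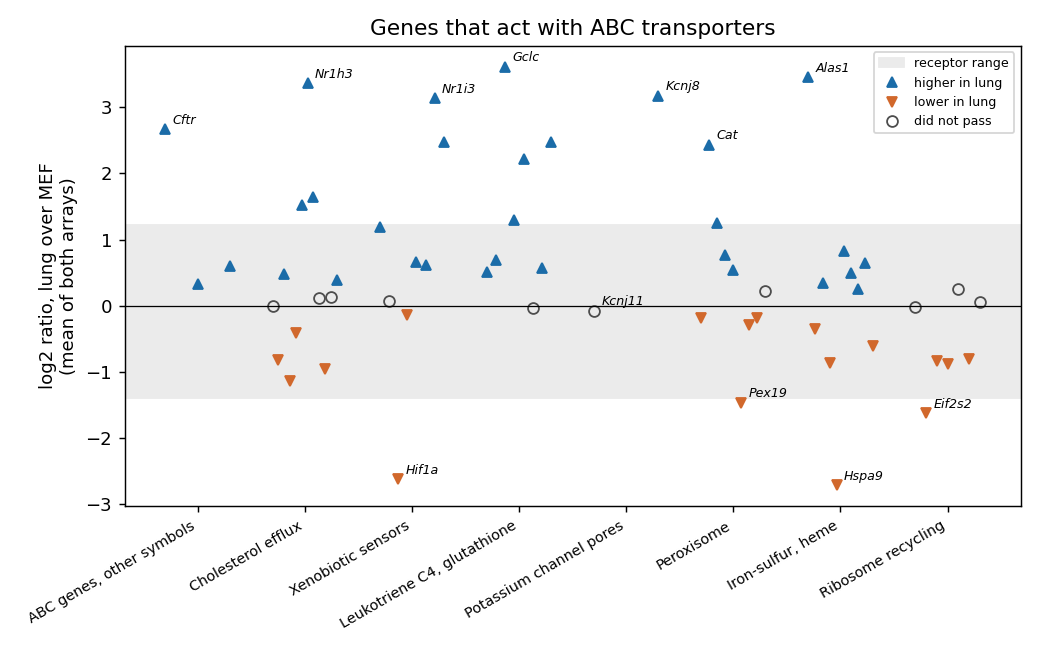
Points are genes of 8 lists that act with ABC transporters, by mean log2 ratio of lung over MEF (y axis), as triangles up where higher, triangles down where lower and open circles where the test was not passed. The grey band is the receptor range. Gclc at 3.61 and Alas1 at 3.46 are the highest points, and Hspa9 at -2.71 is the lowest.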

How the data were processed

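Total RNA from cell pellets (TRIzol, then RNeasy clean-up, per the labels' protocols) was hybridised to 2 Agilent arrays of 2 channels each, with no dye swap, so a dye effect stays in every ratio. The authors deposited 1 log ratio per probe and array, treated here as log2; Agilent Feature Extraction is named per the submitters' processing notes. Its version is not given in the sources used here, nor is its treatment of background and dyes. The table held 41174 probes, of which 32664 carried 1 gene symbol, 45 several and 8465 none, by the platform annotation checked against RefSeq by Entrez identifier (0 symbols changed). Probes were averaged per gene and array. Each gene's mean was set against 0 using limma 3.58.1 under R 4.3.3 (intercept only, eBayes, two-sided, Benjamini-Hochberg over 19532 genes, threshold 0.05), with 1 residual degree of freedom and 1.21 from moderation. MEF RNA was present as the other channel only, so its own spread is left out. The fit was run on data simulated from limma's own variance model, with the largest standard deviations capped. That checks the code and cannot show whether the model holds for these arrays. The ABC genes, role lists and partner lists were chosen with earlier results of these data known. Values are given on each array for ABC genes at least 2-fold apart on both arrays and past the test, and for others as noted. From each partner list at most the 4 largest such genes are named, with Cftr, Tap1, Tap2, Kcnj8, Kcnj11, Alox5, Alox5ap, Ltc4s and Gss. Gene order and promoter windows come from RefSeq tables of GRCm38.p6. Alternatives were array centring, probe summary, moderation, a 2-fold null, the logarithm's base, each replicate left out and symbols without a letter; leaving out probes near the most common pair was chosen after seeing the data.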

Additional observations from a re-analysis of the deposited data

How the results depend on the processing

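None of the 18 genes named as 2-fold apart changed direction under either centring or with either replicate left out. The median of probes moved the value of 3 of them, Abcc1 to -1.80, Abcc5 to 0.80 and Abcc9 to 1.15. With that median Abcc5 and Abcc9 were not 2-fold higher on both arrays, and 9 ABC genes were, against 11. Natural logarithms would multiply every value by 1.443. Dropping moderation, the 2-fold null and leaving out probes near the most common pair left the values of the 18 genes as they were. Without moderation 4 ABC genes were higher and 6 lower, against 25 and 13, and 11 of the 18 no longer passed. Of all 19532 genes 2448 were then higher and 3164 lower, so ABC genes were no longer higher more often than all genes. Against a 2-fold null 7 ABC genes were higher and 5 lower, beside 2754 and 2242 of all genes. Abcb1a, Abcb6, Abcc9, Abce1, Abcg3 and Abcg4 no longer passed it (adjusted p 0.0708 to 0.192 by limma). With every probe fitted by itself and a gene counted by the majority of its probes, 16 ABC genes were higher and 11 lower. By that count 7 and 4 were 2-fold higher and lower, against 11 and 7. Of the 32664 named probes 10516 were higher and 14043 lower, which counts probes and not genes. Centring on the receptor genes left 3 ABC genes that were 2-fold lower, and natural logarithms gave 11. The share of all genes was not taken for these 2-fold counts. The median of the ABC genes, 0.28, became 0.47 with median-centring, 0.70 with receptor centring, 0.41 as natural logarithms, 0.23 without symbols that end in a letter, 0.37 without probes near the most common pair, and 0.25 to 0.28 with 1 replicate left out. Leaving out a replicate leaves no residual degrees of freedom, so it gave values and no test. The remaining alternatives moved the counts by less than 1.5 times. No paired analysis was possible because both arrays belong to 1 group, with MEF as the second channel. The dim probes could not be filtered, since no intensities were used here.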
